A study of Homo sapiens with 2 samples.

Results

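The subject is a set of 9 genes of the epithelial tight junction, CLDN1, CLDN2, CLDN4, CLDN7, CLDN12, TJP1, TJP3, OCLN and F11R, compared between a sorafenib-resistant and a parental culture of cells labelled HepG2. The genes were taken by symbol from the 50868 genes of the deposited expression table, and each of the 9 matched 1 row. HepG2 is a human liver cancer line, and sorafenib is a kinase inhibitor taken against liver cancer. The parental culture was wild type and untreated. The resistant culture had been selected by raising sorafenib from 2.5 µM, by 0.5 µM at a time, to 7 µM. Each group had 1 library of messenger RNA, so no difference has a replicate check, and nothing in the labels says whether the resistant culture was 1 clone. Both groups share the line, the medium and the serum.

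Tight junctions seal the space between neighbouring epithelial cells and separate the apical from the basolateral membrane. Claudins are small membrane proteins that span the membrane several times and bind each other across the gap, and the claudins a cell makes set which ions and solutes pass. Occludin and the junctional adhesion molecule encoded by F11R are further membrane proteins of the junction. Zonula occludens proteins, such as those encoded by TJP1 and TJP3, lie beneath the membrane and tie claudins and occludin to actin. In the liver, these junctions close the bile canaliculus between hepatocytes.

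The parental library held 18067146 counts and the resistant library 16811907. Counts were scaled to library depth as CPM. Log2 ratios set the resistant CPM over the parental CPM after 1 was added to each, so ratios of genes at low levels are drawn towards 0. Genes that reached 1 CPM in either library are called measured, and those whose log2 ratio was 1 or more in size are past the size rule. Each 95% interval covers counting error only, and reads copied by PCR are not independent molecules. The worth of 3 counts, the level that a count of 0 allows, was 0.166 CPM (parental) and 0.179 CPM (resistant). Hepatocyte markers were nearly absent from both libraries. Of 8 hepatocyte markers, 7 had 0 counts in both libraries (ALB, AFP, TTR, SERPINA1, APOA1, APOB and FGB), and HNF4A had 2 counts in each. KRT7, a keratin of duct epithelium, stood at 1892 and 2516 CPM, whereas EPCAM had 0 counts in both. HepG2 is known to express ALB, AFP, APOA1, APOB and EPCAM, so these 0 counts go against the cell line label, and parental and resistant name the libraries only as labelled. Of 7 fibroblast markers 4 were measured, with sums of 179.7 parental and 209.2 resistant CPM and with COL1A2 and PDGFRA at 0. Among them LUM was past the size rule, with 93 parental and 216 resistant counts. Of 6 endothelial markers 2 were measured, with sums of 2.76 and 6.03 CPM and with KDR and CLDN5 at 0. CDH5, with 20 and 72 counts, was past the size rule. Of 6 blood cell markers 1 was measured, with sums of 5.79 and 9.66 CPM and with PTPRC, CD3E and HBB at 0. The part of other cell types in the results was not tested. In such bulk libraries, fewer cells that express a gene and less RNA per cell cannot be told apart.

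The tight junction set split in direction. CLDN1 was 1.99-fold higher in the resistant than in the parental library, and OCLN at 1.47-fold and TJP1 at 1.26-fold were also higher. CLDN12 was at 0.526-fold and TJP3 at 0.434-fold, and CLDN4, CLDN7 and F11R were lower by smaller factors. None of the 8 measured members was past the size rule in either direction, where 2.30% of all 14686 measured genes were. At a log2 ratio of at least 0.5 in size, CLDN1 was higher and CLDN12 and TJP3 were lower, and 11.8% of all measured genes passed that smaller limit. The median log2 ratio of the 8 measured members was -0.18, beside -0.0018 over all measured genes. The member median was -0.11 without the filter on low values, and -0.11 also at a minimum of 10 CPM. The fold interval left out 1 for 7 of the 8, the exception being F11R, but it also did so for 42.2% of all measured genes. Summed over the 9 members the parental level was 325.5 CPM and the resistant level 337.5 CPM, a 1.04-fold ratio whose interval of 0.99967 to 1.08 held 1. TJP1 alone gave 2588 of the 5898 parental and 3011 of the 5658 resistant counts. The direction of the sum depends on length: it was 33.5 and 34.3 as deposited FPKM. Per kilobase of merged exons it was 56.8 parental and 55.2 resistant.

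**Figure D1:**
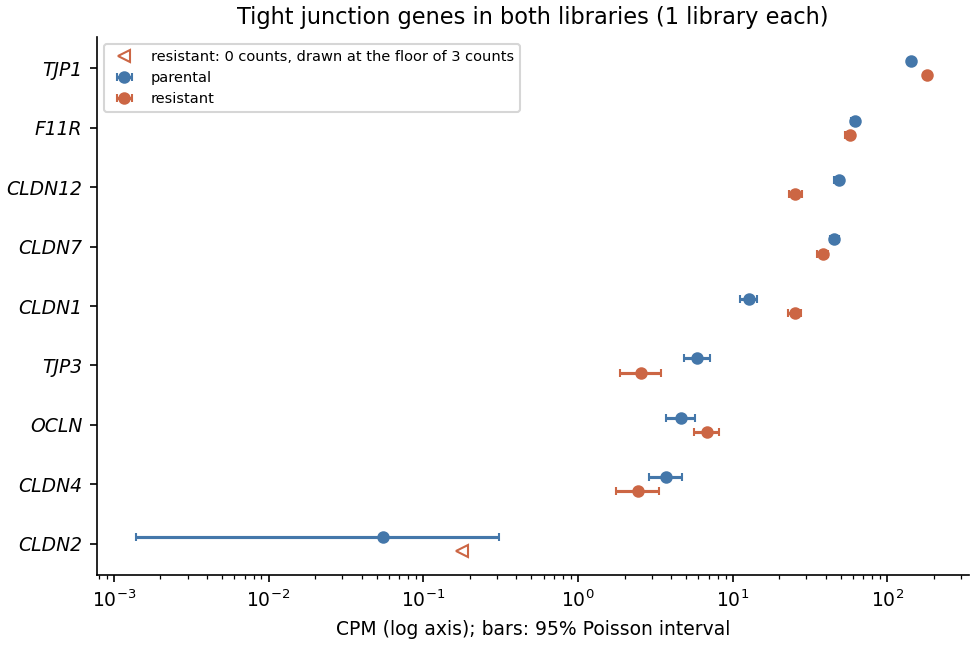
CPM (horizontal log axis) of the 9 genes in the parental (blue) and resistant (orange) library, with 95% Poisson bars and 1 library per group. CLDN1, OCLN and TJP1 have the resistant point to the right of the parental one, and the 5 other measured genes have it to the left. The 0 resistant counts of CLDN2 are drawn as an open triangle at the 3-count floor.

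Among the claudins, CLDN1 (ENSG00000163347; GRCh38, chromosome 3, 190305701 to 190322475, minus strand) encodes claudin-1, a sealing claudin of skin and bile canaliculus that also serves hepatitis C virus as an entry factor. It had 230 parental and 424 resistant counts, or 12.7 and 25.3 CPM. The resistant library was the higher, by 1.99-fold (95% interval 1.69 to 2.35). The log2 ratio of 0.94 fell just short of the size rule, and 1.57% of all measured genes had a ratio at least as high. CLDN1 shares no exon with another gene on either strand, so its counts are its own as far as the annotation goes.

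CLDN12 (ENSG00000157224; chromosome 7, 90383721 to 90513402, plus strand) encodes claudin-12, an atypical claudin without the PDZ-binding tail by which others hold zonula occludens proteins. It had 878 parental and 427 resistant counts, or 48.5 and 25.5 CPM. The resistant level was lower by a factor of 1.90 (1.69 to 2.14). The log2 ratio was -0.90, and 1.40% of all measured genes had one as low or lower. CLDN12 shares exons on its own strand with CDK14, a cyclin-dependent kinase gene, and GTPBP10, a GTPase gene. CDK14 had 1361 and 1397 counts and GTPBP10 806 and 722 in the parental and resistant library. Summed with all genes that share its exons, the locus had a log2 ratio of -0.14. That sum also takes in the unshared reads of CDK14 and GTPBP10, and how the authors assigned shared reads was not tested.

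CLDN7 (ENSG00000181885; chromosome 17, 7259903 to 7263983, minus strand) encodes claudin-7, which lies along the lateral membrane of many epithelia and binds EpCAM. It had 823 parental and 640 resistant counts, or 45.4 and 38.2 CPM. The resistant level was lower by a factor of 1.19 (1.07 to 1.32), a log2 ratio of -0.24, well inside the spread of all genes, where 15.9% lay as low or lower. Its exons overlap those of ELP5, an Elongator subunit gene on the opposite strand with 776 and 912 counts. Use of strand in counting was not given in the sources used here, and reads from the overlap may belong to either gene.

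CLDN4 (ENSG00000189143; chromosome 7, 73799542 to 73832693, plus strand) encodes claudin-4, a claudin that tightens epithelia against sodium. It had 67 parental and 41 resistant counts, or 3.70 and 2.45 CPM. The ratio of 0.661-fold had a wide interval (0.437 to 0.990). The low counts leave the size of this difference poorly fixed. CLDN2 (ENSG00000165376; chromosome X, 106900164 to 106930861, plus strand), which encodes the claudin of a cation and water pore, had 1 parental and 0 resistant counts. Both lie under the floor of 3 counts, and no fold is given.

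Among the scaffolds, TJP1 (ENSG00000104067; chromosome 15, 29699367 to 29968865, minus strand) had the most counts of the set. It encodes ZO-1, the scaffold on which claudin strands are assembled. Its counts were 2588 parental and 3011 resistant, or 142.8 and 179.6 CPM. The resistant level was higher by 1.26-fold (1.19 to 1.33), a log2 ratio of 0.33 that 12.2% of measured genes reached or passed. TJP3 (ENSG00000105289; chromosome 19, 3708109 to 3750813, plus strand) encodes ZO-3, the zonula occludens protein restricted to epithelia, and differed the other way. It had 107 parental and 43 resistant counts, or 5.91 and 2.57 CPM. The resistant level was lower by a factor of 2.30 (1.60 to 3.36). Because 1 CPM is added to each level, the log2 ratio was -0.95 and TJP3 stayed inside the size rule. With 0.25 CPM added it was -1.13 and past it. The authors' deposited table, which adds nothing, gives TJP3 a log2 fold change of -1.21 and the call DOWN, as for 1.03% of the 21518 genes compared there, where 2.29% have a call in either direction. In the authors' deposited table CLDN1 stands at 0.99 and CLDN12 at -0.94, and neither these nor any other member is called.

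OCLN (ENSG00000197822; chromosome 5, 69492292 to 69558104, plus strand) encodes occludin. It had 84 parental and 114 resistant counts, or 4.64 and 6.80 CPM. The resistant library was the higher, by 1.47-fold (1.10 to 1.97). The log2 ratio was 0.47, which 7.25% of measured genes reached or passed. F11R (ENSG00000158769; chromosome 1, 160995211 to 161021348, minus strand) encodes JAM-A, an immunoglobulin-type adhesion molecule that recruits polarity proteins to the junction. It had 1120 parental and 958 resistant counts, or 61.8 and 57.2 CPM. The interval of its 0.925-fold ratio (0.847 to 1.01) held 1, so a difference was not detectable at this depth.

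**Figure D2:**
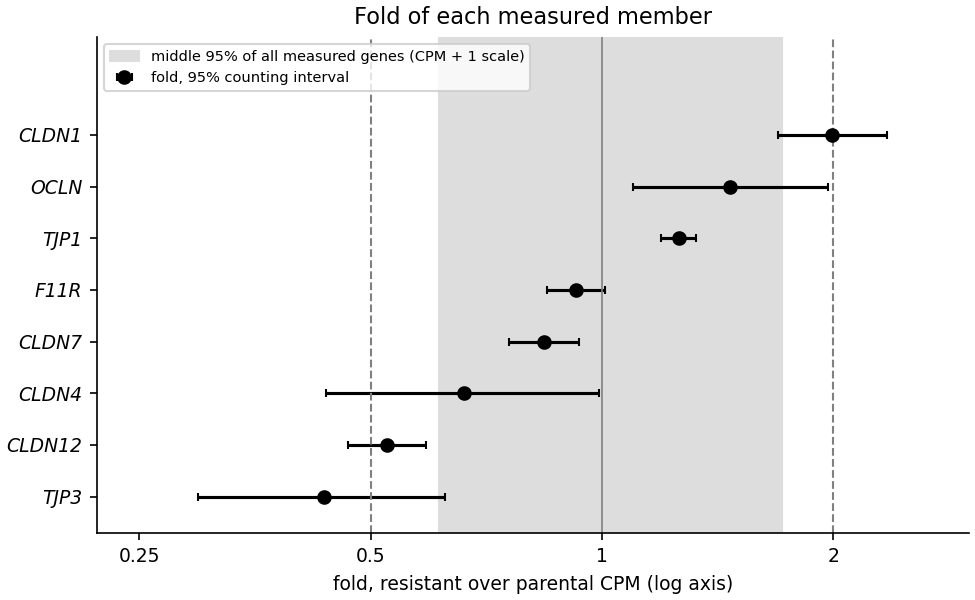
Fold of resistant over parental CPM (horizontal log axis) with its 95% counting interval for the 8 measured members; dashed lines mark 0.5 and 2, and the grey band holds the middle 95% of all measured genes on the CPM + 1 scale. CLDN1 at 1.99 lies to the right of the band, CLDN12 at 0.526 and TJP3 at 0.434 lie to its left, and the other 5 lie within it.

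The upstream sequences of the genes with the largest ratios, and of CLDN7, are shown for their base composition and for the E-box CAGGTG, to which the junction repressors SNAI1, SNAI2 and ZEB1 are known to bind. They were read from RefSeq (GRCh38.p14), which had start sites for 8 of the 9 members, 15 in all. Each is printed 5′ to 3′ on the strand of its gene, with CAGGTG and its reverse complement CACCTG in capitals. Annotated exons are left out, except for the last pair, which gives only the 30 bases before a start site. Those of CLDN7 lie within annotated exons. CLDN7 had a small log2 ratio, -0.24, and its printed start held the most matches of the 15 start sites. The 30 bases of TJP3 hold its match. The 130-base stretch outside annotated exons before the same TJP3 start held 0.
CLDN1, the 65 bases that separate it from CLDN16 (chr3:190322476-190322540, minus strand): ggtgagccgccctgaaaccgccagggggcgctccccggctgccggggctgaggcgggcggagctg
CLDN12 (chr7:90403211-90403352, plus strand): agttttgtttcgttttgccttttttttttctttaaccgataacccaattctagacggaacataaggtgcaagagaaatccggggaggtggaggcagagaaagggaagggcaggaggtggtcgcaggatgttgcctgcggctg
CLDN7, start at 7262478 (chr17:7262479-7262508, minus strand): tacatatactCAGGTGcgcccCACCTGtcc
TJP3, start at 3721737 (chr19:3721707-3721736, plus strand): gagacctggaggaggaagaggggCAGGTGc

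Within 250 bases before a start site, CAGGTG or CACCTG was found at 1 or more start sites of 4 of the 8 members (CLDN7, TJP1, TJP3 and OCLN), and of 20.6% of all 27305 genes in the table. Counted by start site, 5 of the 15 of the members held a match, beside 17.5% of all 35116. The CLDN7 start printed above held 4 matches, and 0.122% of start sites held 4 or more. All 250 bases before that start lie within annotated exons of either strand. The other start site of CLDN7 held 0, and so did the other start site of TJP3. The windows of CLDN1 and CLDN12 held none. These windows differ in composition, with 68.8% G and C for CLDN1 and 54.4% for CLDN12. The GC box GGGCGG (either strand) occurred 2 times in the CLDN1 window and 0 times in that of CLDN12, and 42.6% of all start sites held it. A match is a string of letters and not a bound site, and its absence says only that these letters are not in this window. Of the genes whose products bind this E-box, ZEB1 had 404 and 728 counts, 1.95-fold (1.72 to 2.21). SNAI2 had 1033 and 705 counts, 0.738-fold (0.669 to 0.813), and SNAI1 had 31 and 27. ZEB2 was at 1.09-fold (0.977 to 1.21). TWIST1 and TWIST2 are on the list of junction repressors and are not named here as binding this E-box. They were at 0.907-fold (0.754 to 1.09) and 1.003-fold (0.793 to 1.27). The 6 listed repressors thus did not share a direction, and none was past the size rule.

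CLDN1 and CLDN16 stand head to head on chromosome 3, with 65 bases between their annotated ends. CLDN16, whose product serves magnesium uptake in the kidney, had 5 parental and 3 resistant counts. The interval of its fold ran from 0.101 to 3.33, so these counts cannot show whether it differed as CLDN1 did. CLDN3, the neighbour of CLDN4 on chromosome 7, had 13 and 9 counts.

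Of the 24 claudin genes, 12 had 0 counts in both libraries and 6 were measured: CLDN1, CLDN4, CLDN7, CLDN12, CLDN15 and CLDN23. CLDN15, which encodes a pore claudin of the intestine, had 201 and 156 counts, 0.839-fold (0.676 to 1.04). CLDN23 had 39 and 41 counts, 1.14-fold (0.715 to 1.81). Together the family had 2269 parental and 1745 resistant counts, 0.831-fold (0.781 to 0.885). The lower sum rests on CLDN12: without it the counts were 1391 and 1318, 1.02-fold (0.949 to 1.11), a sum chosen after the values were seen. Summed as deposited FPKM, the family stood at 18.7 and 18.2. CLDN1 took 10.1% of the claudin counts in the parental (exact interval 8.92 to 11.5) and 24.3% in the resistant library (22.3 to 26.4). CLDN12 took 38.7% (36.7 to 40.7) and 24.5% (22.5 to 26.6). The share of CLDN7 was 36.3% (34.3 to 38.3) and 36.7% (34.4 to 39.0), overlapping intervals. Count shares depend on gene length, and the deposited FPKM gives other shares. By FPKM CLDN1 took 17.7% of the parental and 36.2% of the resistant claudin sum, CLDN7 37.2% and 32.0%, and CLDN12 24.3% and 13.1%. Per kilobase of merged exons these shares were 9.80% and 21.9% for CLDN1, 51.5% and 48.7% for CLDN7, and 20.3% and 12.01% for CLDN12. On each of the 3 scales the CLDN1 share was higher and the CLDN12 share lower in the resistant library, while the leading claudin of that library was CLDN1 by FPKM and CLDN7 on the other scales.

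Levels of different genes can be compared only per length, and here the length used by the authors matters. The deposited FPKM divides each count by a gene length that equals the summed length of all distinct annotated exons to within 1 base, for 9 of 9 members and for 86.1% of 14025 genes checked. Exons that overlap between transcripts are then counted more than once. For CLDN7 the deposited length is 6529 bases where its merged exons cover 2492, for CLDN4 11275 against 4702, and for CLDN1 3828 against 3663. On the deposited scale, parental F11R led at 9.06 FPKM, ahead of TJP1 at 7.69 and CLDN7 at 6.98. On merged exons, parental CLDN7 led at 18.3 CPM per kilobase, ahead of TJP1 at 12.7 and F11R at 12.2. CLDN7 was at 0.770 times the F11R level on the first scale and at 1.49 times on the second. The second scale was chosen after the first had been examined. Fold changes of a gene between libraries do not depend on its length.

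In the parental library CLDN12 was next on either scale, at 4.56 FPKM or 7.21 CPM per kilobase, and CLDN1 followed at 3.33 or 3.48. In the resistant library their order was the reverse, with CLDN1 at 6.59 FPKM or 6.89 CPM per kilobase and CLDN12 at 2.38 or 3.77. TJP3, OCLN and CLDN4 stood below in each library, between 0.216 and 0.987 FPKM. TJP3 led these 3 in the parental library on both scales, and OCLN led them in the resistant library. CLDN2 was lowest throughout. Parental TJP1 and F11R lay close on the merged scale, at 12.7 and 12.2, and their order differs between the scales.

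**Figure D3:**
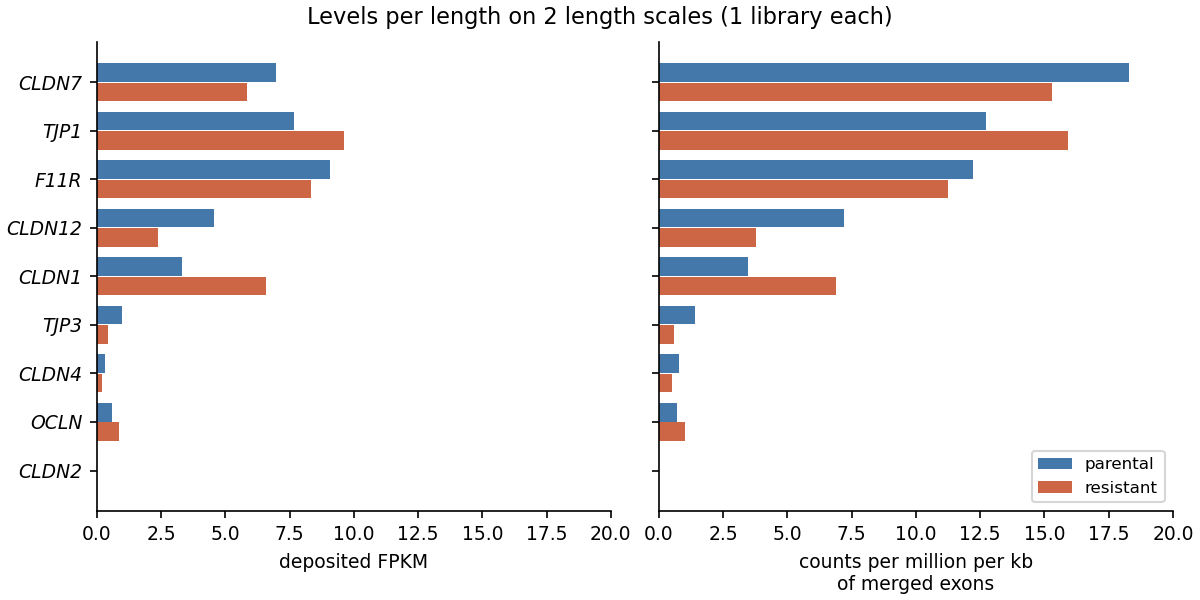
Levels per length of the 9 genes in the parental (blue) and resistant (orange) library, as deposited FPKM (left) and as CPM per kilobase of merged exons (right), with bars from 0 and no error since each group has 1 library. In the parental library CLDN7 lies below F11R and TJP1 on the left at 6.98 FPKM and leads on the right at 18.3, and CLDN1 and CLDN12 swap order between the libraries on both scales.

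The other genes of the pathway went both ways. The 8 lists held 100 genes, of which 64 were measured. None of the 64 was past the size rule in either direction, where 2.30% of all measured genes were. Without the members, 56 genes were measured, with 29 positive and 27 negative log2 ratios and a median of 0.01. By the smaller limit of 0.5, 5 of the 56 were higher and 2 of the 56 lower, beside 6.46% and 5.37% of all measured genes.

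Cytoplasmic scaffolds had 14 measured genes of 15, with 7 positive and 7 negative and a median of 0.02. CGN, which encodes cingulin, a link from ZO-1 to actomyosin, had 202 and 316 counts, 1.69-fold (1.41 to 2.03). Its relative CGNL1 (paracingulin) had 24 and 6 counts, 0.270-fold (0.0904 to 0.679). These paralogs differed in opposite directions, as TJP1 and TJP3 did. YBX3, which encodes a Y-box protein that ZO-1 binds, had the highest FPKM of the scaffold list and stood at 1.13-fold (1.08 to 1.18).

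At the contacts where cell corners meet, MARVELD2, the tricellulin gene, had 135 and 127 counts, 1.02-fold (0.792 to 1.31). LSR, which encodes an angulin that places tricellulin there, had 87 and 57 counts, 0.708-fold (0.498 to 1.0004). Occludin and tricellulin are of 1 protein family, and OCLN was the higher of the pair in ratio, although their intervals overlap.

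Of the other adhesion molecules related to JAM-A, CLMP stood at 93.6 and 93.1 CPM and CXADR, the coxsackievirus and adenovirus receptor gene, at 69.8 and 70.9 CPM. Their folds were 0.995 (0.928 to 1.07) and 1.02 (0.937 to 1.10). ESAM, with 36 and 30 counts, was at 0.901-fold (0.536 to 1.504). The intervals of all 3 held 1, as did that of F11R, and that of ESAM was wide.

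Of 14 polarity genes found, 12 were measured, 6 positive and 6 negative, with a median of -0.0043. CRB3, which encodes the apical Crumbs protein of epithelia, had 41 and 17 counts, 0.448-fold (0.239 to 0.807). PRKCI, the gene of the atypical protein kinase C that acts with the Par proteins, stood at 123.8 and 89.5 CPM, 0.723-fold (0.677 to 0.772). PARD6B was at 1.32-fold (1.06 to 1.64), and MPP5, the gene of the Crumbs scaffold PALS1, at 1.246-fold (1.18 to 1.31). The list had no common direction.

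The list of angiomotins and other junction partners had the highest median of the 8 lists, 0.23, with 7 of 11 measured genes positive. AMOTL2, an angiomotin gene that is also known as a target of YAP, had 1143 and 1858 counts, 1.76-fold (1.63 to 1.89). SHROOM2, which encodes an actin organiser of apical junctions, had 49 and 80 counts, 1.76-fold (1.22 to 2.57).

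Of 15 genes of claudin partners and epithelial identity, 8 were measured, 4 positive and 4 negative. EPCAM, whose product stabilises claudin-7, had 0 counts in both libraries beside the 823 and 640 counts of CLDN7. CDH1, the gene of E-cadherin in the neighbouring adherens junction, had 5 and 20 counts, 4.32-fold (1.57 to 14.7). KLF5, an epithelial transcription factor gene, stood at 201.5 and 269.9 CPM, 1.34-fold (1.28 to 1.40). ELF3, also an epithelial transcription factor gene, was at 129.4 and 101.8 CPM, 0.787-fold (0.739 to 0.838).

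**Figure D4:**
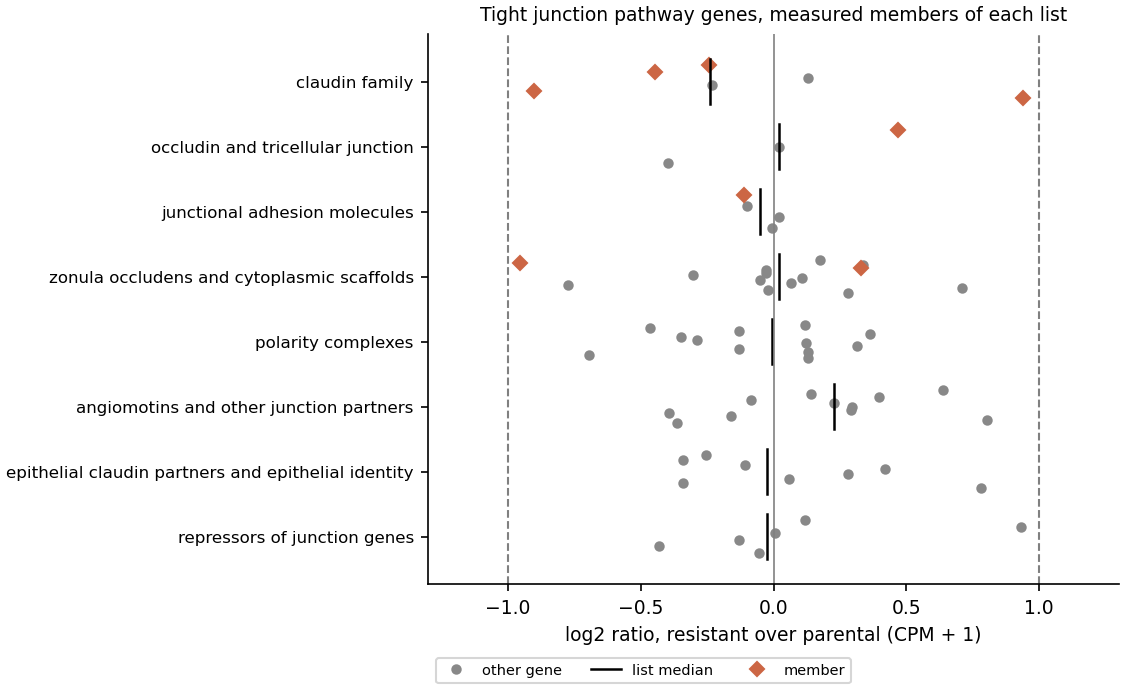
Log2 ratio of resistant over parental CPM + 1 (horizontal axis) for the measured genes of the 8 pathway lists, with members as orange diamonds, other genes as grey dots, list medians as black lines and the size rule as dashed lines at -1 and 1. All points lie between the dashed lines, and the outermost are TJP3 at -0.95, CLDN1 at 0.94, ZEB1 at 0.93 and CLDN12 at -0.90.

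**Figure D5:**
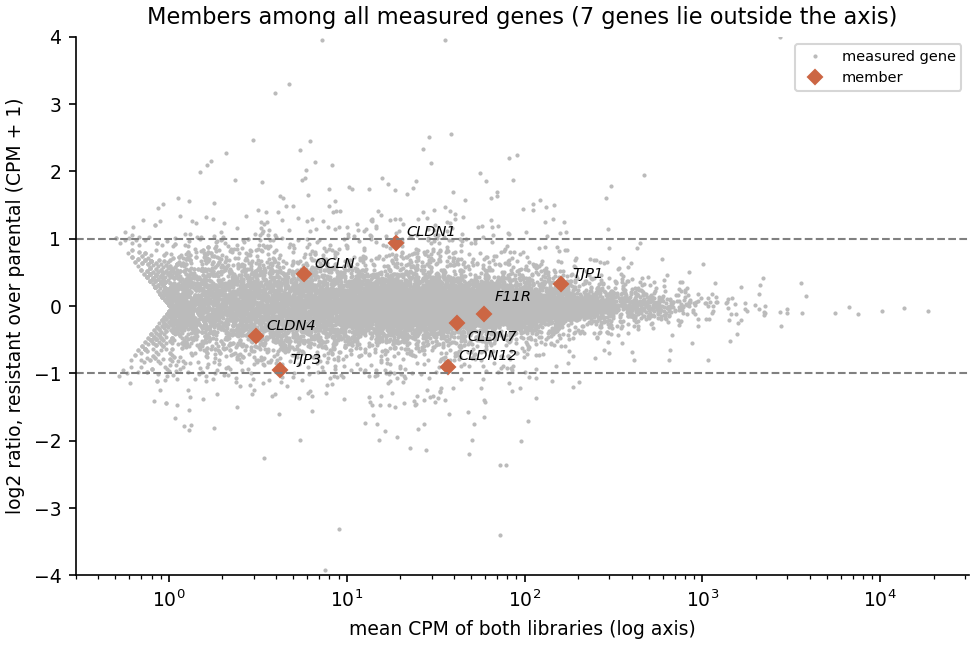
Log2 ratio of resistant over parental CPM + 1 against the mean CPM of both libraries (log axis) for all 14686 measured genes (grey), with the 8 measured members as orange diamonds and the size rule as dashed lines; 7 genes lie outside the vertical axis. CLDN1 lies near the upper and TJP3 and CLDN12 near the lower dashed line, and the other 5 members lie within the main cloud.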

How the data were processed

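Messenger RNA libraries of 1 parental and 1 resistant culture were compared, grouped by the treatment labels. The deposited tables give whole-number counts, not normalized, and FPKM, per the file headers. Per the submitters' processing notes, bcl2fastq 2.19, HISAT2 2.0.4 and StringTie 1.3.0 were used on GRCh38; the annotation release and counting settings were not given in the sources used here. A log2 fold change and a call stand in the authors' deposited table; no source used here describes their test, and the p-values of that table were not used.

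Counts were scaled with TMM factors (edgeR 4.0.16, R 4.3.3) and no model was fitted. Fold intervals are exact Clopper-Pearson 95% intervals of the ratio of both counts given their sum. Exons came from GENCODE 29, which held 50111 of the 50868 identifiers. The interval code was tested on simulated data. Alternatives were other scalings (library totals, DESeq2 1.42.0), pseudocounts, filters, units and locus sums. The members and lists were chosen with earlier results of these data known. Named pathway genes are, per list, those past the size rule, up to 3 further measured non-members with the largest log2 ratio in size, the 2 with the highest FPKM, the repressors and EPCAM. A few genes under this rule are not reported here. PALS1 was found under its older symbol MPP5. Partners and neighbours (CDK14, GTPBP10, ELP5, CLDN3, CLDN16), marker genes, and the 3 genes under other observations were named after their values were seen.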

Additional observations from a re-analysis of the deposited data

How the results depend on the processing

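The direction of every measured member was the same under all 7 alternative scalings, pseudocounts, units and locus sums. A pseudocount cannot reverse a direction, and units per length repeat the direction of the library totals. Only the scalings and the locus sum could have shown a reversal. The direction of CLDN2, which was not measured, could not change under any of the 7. Of 63 such values, 61 stayed within the counting interval set around the reported log2 ratio. Those of CLDN2 are among the 61 by construction, since its 1 and 0 counts give no finite bound. Both values that did not stay were of CLDN12, at -0.72 with deposited FPKM plus 1 and -0.14 in the sum with genes that share its exons. In that sum reads of CDK14 and GTPBP10 are added. The count of members past the size rule was 0 and became 1 (TJP3) with 0.25 CPM added and 3 at a limit of 0.5. For the pathway genes the count of 0 became 3 (TJP3, CGNL1 and CDH1) and 10 under these settings. The count over all measured genes was 338. It became 647 with 0.25 CPM added, 151 with 5 CPM added, 146 with deposited FPKM plus 1, 207 at a minimum of 10 CPM, 1737 at a limit of 0.5 and 183 per merged exon kilobase, the last setting being chosen after the data were seen. The parental level of CLDN7 over F11R per length was 0.770 on deposited FPKM and 1.49 on merged exons, by construction of the length. The median log2 ratio of the measured members, -0.18, lay between -0.20 and -0.11 under the alternatives, and was -0.12 with deposited FPKM plus 1. The claudin sum of 0.831-fold became 1.02-fold without CLDN12, an alternative added after the data were seen. No paired analysis was possible because each group has 1 library. Low counts limit CLDN2, CLDN4, CLDN16, CLDN3, CGNL1, CDH1 and SNAI1, among others.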

Other observations

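The deposited annotation allows a wider view of junction genes. Of 170 genes under the KEGG term Tight junction, 118 were measured, 69 positive and 49 negative, with a median log2 ratio of 0.05. The 1 gene past the size rule was PRKCE, which encodes a protein kinase C, with 155 and 314 counts, 8.55 and 18.7 CPM (interval of the fold 1.80 to 2.67). Of 112 genes under the GO term bicellular tight junction, which holds all 9 members, 76 were measured, 44 positive and 32 negative, with a median of 0.06. The 2 past the size rule were both higher, which is 2.63% beside 2.30% of all measured genes. They were MPP7, which encodes a membrane scaffold that binds the polarity protein DLG1, with 1385 and 3076 counts, 2.40-fold (2.25 to 2.56), and CDH5, the gene of the endothelial cadherin, with 20 and 72 counts, 3.89-fold (2.34 to 6.74). These terms were looked up after the other values were known, and with 1 library per group the differences have no replicate check.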
